A study of Homo sapiens with 14 samples.

Results

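The genes described here encode translation initiation factors 1, 2, 3, 5 and 6, eIF2B, eIF5A and the kinases that phosphorylate eIF2. The rule that chose the members uses gene names and no measured value: the EIF1, EIF1A, EIF2, EIF3, EIF5 and EIF6 symbols of the count table that stand on a fixed list, with the eIF2B subunits and the EIF2AK kinases. Copies such as EIF3CL are not on that list. This gave 36 genes of 58434 symbols, and all 36 passed the filter on low counts in every fit. They were 4 eIF1 or eIF1A genes, 3 eIF2 subunits, 5 eIF2B subunits, 4 eIF2α kinases, EIF2A and EIF2D, 13 eIF3 subunits, EIF5 and EIF5B, 2 eIF5A genes and EIF6.

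MDA-MB-231 is an established line of human triple-negative breast cancer. Cells carried a stable doxycycline-inducible hairpin, either non-silencing (MB-231-shNSi) or against Dap5 (MB-231-shDAP5), and every culture, controls included, received doxycycline at 1 µg/ml for 6 days. DAP5, encoded by EIF4G2, belongs to the eIF4G family of scaffold proteins but cannot bind eIF4E. RNA was sequenced from total lysate and from sucrose gradient pools of light and heavy polysomes, which are mRNAs loaded with few and with more ribosomes, in 2 cultures of each line, and from a moderate pool in shNSi only, for 14 libraries in all. The shDAP5 light libraries carry the code that marks the moderate pool in shNSi, and were used here as their titles name them. The shDAP5 total libraries are titled as total polysome whereas those of shNSi are titled as total, and both were taken as total mRNA. If they differ in kind, this would touch every comparison with total mRNA, the EIF4G2 values included. With 1 line for each hairpin, DAP5 loss and other differences between the lines cannot be told apart.

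Libraries held 25899838 to 30795910 counts. EIF4G2, the targeted gene, was at 1486 and 1431 CPM (counts scaled to a common library size) in shNSi total mRNA and at 572 and 782 CPM in shDAP5, a log2 change of -1.11 ± 0.18 (SE, adjusted p = 0.0172). In total mRNA the line markers VIM (4355 to 5450 CPM), CD44 (206 to 634 CPM) and EGFR (69.3 to 174 CPM) were present, and PGR was at 0 counts. Values are shares of each library, so a change in how much RNA a pool held and a change in its make-up cannot be told apart.

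Initiation begins when eIF2, bound to GTP and the initiator tRNA, joins the small ribosomal subunit with eIF1, eIF1A, eIF3 and eIF5. eIF3, the largest factor, links this complex to the mRNA, and its eIF3d subunit can itself bind the cap. eIF1 and eIF1A hold the complex open for scanning, eIF5 triggers GTP hydrolysis on eIF2 at the start codon, and eIF5B brings in the large subunit. eIF2B recharges eIF2 with GTP, and phosphorylation of eIF2α by the EIF2AK kinases blocks that step.

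None of the 36 genes changed in total mRNA. Every adjusted p given here comes from the quasi-likelihood test of edgeR, adjusted over all genes by Benjamini and Hochberg. At 0.05, 0 of 36 members passed, against 0.354% of 14992 genes tested. At an unadjusted p under 0.05 there were 4, and DESeq2 and limma each called 0. The median log2 change of the members was -0.10, against 0.01 over all genes, and the values ran from -0.63 for EIF3C to 0.46 for EIF2AK1. All 13 eIF3 subunits lay within a range of 0.80 in total mRNA.

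Heavy and light polysomes of shNSi cells were compared first for the subunits of eIF3, each against its own level, and differences between subunits were not tested. EIF3A, the scaffold of the complex, was at 101 and 63.2 CPM in the light pools of shNSi cultures 1 and 2 and at 506 and 824 CPM in the heavy pools. Heavy exceeded light in both cultures, with a log2 difference of 3.38 ± 0.41 (adjusted p = 2.04e-06). EIF3K, a small PCI domain subunit, was at 269 and 414 CPM in the light pools and at 185 and 161 CPM in the heavy pools, a log2 difference of -0.59 ± 0.35 that did not pass the test (adjusted p = 0.147). With a trend on coding length removed from each library EIF3A had 2.08 (adjusted p = 5.34e-06) and EIF3K turned to 0.35 (adjusted p = 0.269).

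Of the 13 eIF3 subunits, 7 were higher in heavy than in light polysomes of shNSi cells, 0 were lower and 6 did not pass, against 30.5% of all genes higher and 31.1% lower. DESeq2 also called EIF3H and EIF3M, and without TMM EIF3G, EIF3J and EIF3K were called lower. EIF3F, EIF3G, EIF3J and EIF3K had log2 heavy over light ratios of -1.14, -1.26, -0.92 and -0.95 in culture 2. In culture 1 they had 0.56, 0.27, -0.19 and -0.22. The 7 were EIF3A, EIF3B, EIF3C, EIF3D, EIF3E, EIF3I and EIF3L, with log2 differences from 1.67 for EIF3I to 3.38 for EIF3A. EIF3C, a core subunit, is uncertain. Its row held only 39 to 435 counts per library, and reads that match its near-identical copy EIF3CL (0 to 38 counts) can be lost or split between the copies. EIF5A, EIF1AX, EIF2S2 and EIF3F also have close copies (EIF5AL1, EIF1AXP1, EIF2S2P4 and EIF3FP3) that could take some of their reads.

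Among the partners of eIF3 the same comparison gave both directions. All 4 members grouped as eIF1 and eIF1A, EIF1AD among them by its symbol alone, were lower in heavy polysomes, as were 31.1% of all genes. The calls of EIF1AX and EIF1AD were lost without shNSi culture 2 and with the shNSi heavy and moderate pools summed. EIF1, the scanning factor, was at 3070 and 1857 CPM in the shNSi light pools and at 371 and 429 CPM in the heavy pools, a log2 difference of -2.21 ± 0.44 (adjusted p = 0.000242). Both eIF5A genes were lower as well. EIF5A, which with its hypusine residue assists peptide bond formation, differed by -1.74 ± 0.42 (adjusted p = 0.00124) and EIF5A2, its paralog, by -1.46 ± 0.28 (adjusted p = 0.000183). EIF5B, the subunit joining GTPase, was higher by 3.05 ± 0.36 (adjusted p = 1.6e-06), whereas EIF5 differed by 0.73 ± 0.35 and did not pass (adjusted p = 0.074).

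Of the 3 subunits of eIF2, 2 passed in this comparison, and differences between subunits were not tested. EIF2S1, the α subunit that the stress kinases phosphorylate, was higher in heavy than in light polysomes by 1.60 ± 0.39 (adjusted p = 0.00145) and EIF2S3, the GTP-binding γ subunit, by 1.96 ± 0.32 (adjusted p = 2.71e-05). EIF2S2, the β subunit, differed by -0.02 ± 0.41 (adjusted p = 0.969). Its heavy over light ratio was 0.91 on the log2 scale in culture 1 and -0.95 in culture 2, so the cultures pointed opposite ways. The call of EIF2S1 was lost without shNSi culture 1. Whenever a culture was left out, its line had 1 culture, which was assumed to vary like those of the other line. Of the 5 eIF2B subunits 4 were higher (30.5% of all genes), by 1.61 to 1.93, and EIF2B1, the regulatory α subunit, differed by 0.34 ± 0.31 without passing.

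In all, 18 of 36 members were higher in heavy than in light polysomes of shNSi cells, against 30.5% of 15878 genes tested, and 6 were lower, against 31.1%. The 6 were the 4 eIF1 and eIF1A genes and both eIF5A genes. All 6 of these calls were lost when a trend on coding length was removed from each library, EIF1 then having -0.29 and EIF1AD 0.57 (adjusted p = 0.402 and 0.055). With that trend removed EIF2D (-1.35), EIF2AK1 (-1.07) and EIF2AK4 (-0.65) passed as lower (adjusted p = 6.19e-05, 0.0012 and 0.0256), and EIF2B1 and EIF3H were added as higher. Without TMM normalization 16 were higher and 11 lower. In the comparison of heavy polysome with total mRNA, 16 members were higher in shNSi (23.2% of 15374 genes) and 5 lower (21.8%). Without TMM this became 8 higher and 10 lower, and all 5 lower calls were lost with the trend on coding length removed. The total fell to 1 call without shNSi culture 2 and to 8 without shNSi culture 1, where 4.81% and 15.8% of all genes passed.

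The pools of the shNSi cultures did not match closely. Taking the pool with the highest ratio to total mRNA, 16 members peaked in heavy polysomes in both cultures, 5 in light, 3 in moderate, and 12 in different pools. EIF5B had log2 ratios to total of -1.80 (light), -1.95 (moderate) and 0.69 (heavy) in culture 1, and of -1.97, -1.27 and 1.72 in culture 2. EIF3F, an MPN subunit, had -0.48, 0.92 and 0.08 in culture 1 and 0.52, 0.36 and -0.55 in culture 2, so its peak moved from the moderate to the light pool.

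**Figure D1:**
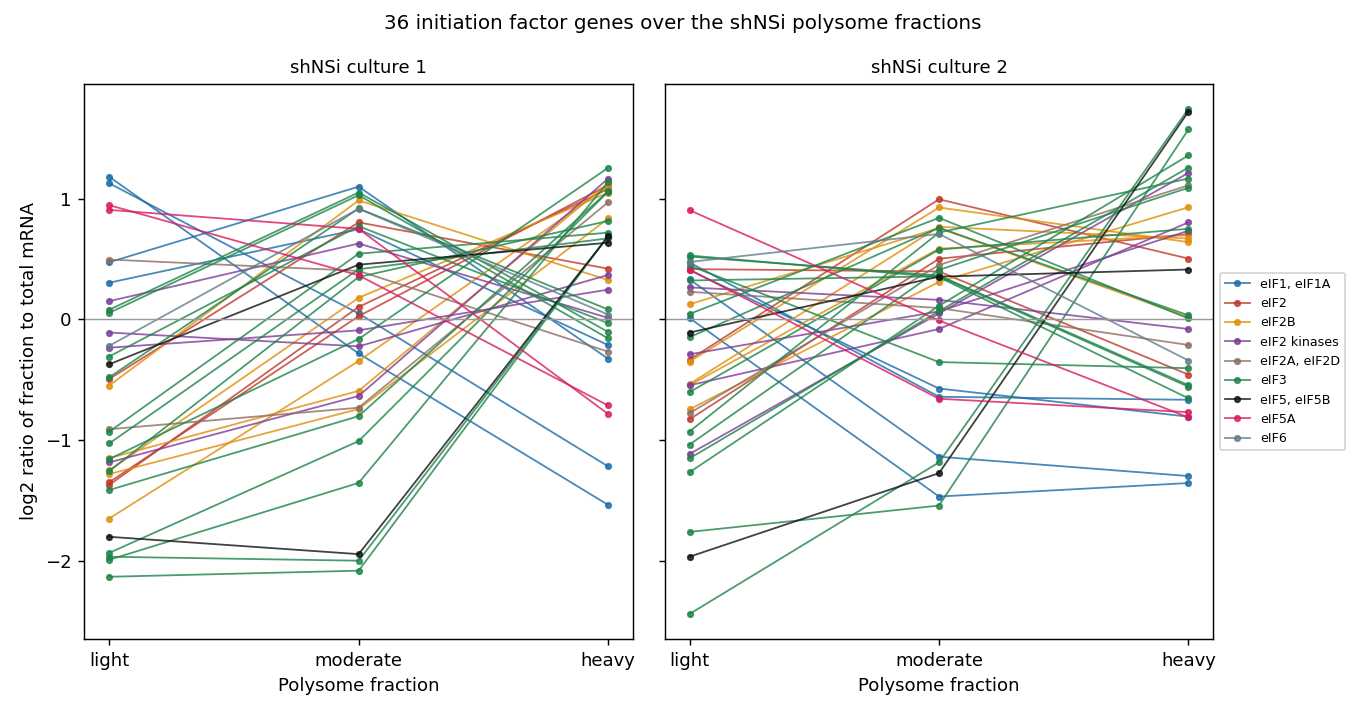
The y axis gives the log2 ratio of each polysome pool to total mRNA and the x axis the pool, for the 36 genes (lines, coloured by factor) in shNSi culture 1 (left) and culture 2 (right). EIF1 and EIF1B fall from light to heavy in both cultures, and EIF3A, EIF3C and EIF5B rise to the heavy pool, reaching 0.69 in culture 1 and 1.57 to 1.74 in culture 2.

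In shDAP5 cells no member stood apart in heavy polysomes relative to total mRNA, with 0 of 36 passing the test, against 2.47% of 15374 genes, while 8 had an unadjusted p under 0.05 and DESeq2 called 0. EIF3A had log2 heavy over total ratios of 0.60 and 1.66 in the shNSi cultures and of 0.10 and -1.06 in the shDAP5 cultures. EIF1 had -1.63 and -1.38 in shNSi and -0.62 and -0.01 in shDAP5. Neither gene's lines overlapped, but nor did those of members that passed no test between the lines, such as EIF1AD, EIF2D and EIF3J. With 2 cultures against 2 the smallest two-sided permutation p is 0.333, so such separation is only a description, here and below.

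Between heavy and light polysomes of shDAP5 cells, 18 members were higher (19.8% of 15878 genes) and 4 lower (19.9%). The higher ones included 9 of 13 eIF3 subunits and all 5 of eIF2B. The lower ones were EIF1, EIF1B, EIF1AX and EIF5A2, and all 4 lost their calls with the trend on coding length removed. EIF3A was higher by 1.02 ± 0.37 (adjusted p = 0.0349) and EIF5B differed by 0.81 ± 0.33 (adjusted p = 0.0541). Without shDAP5 culture 1 7 members passed, and without culture 2 8, where 12.2% and 10.7% of all genes did.

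**Figure D2:**
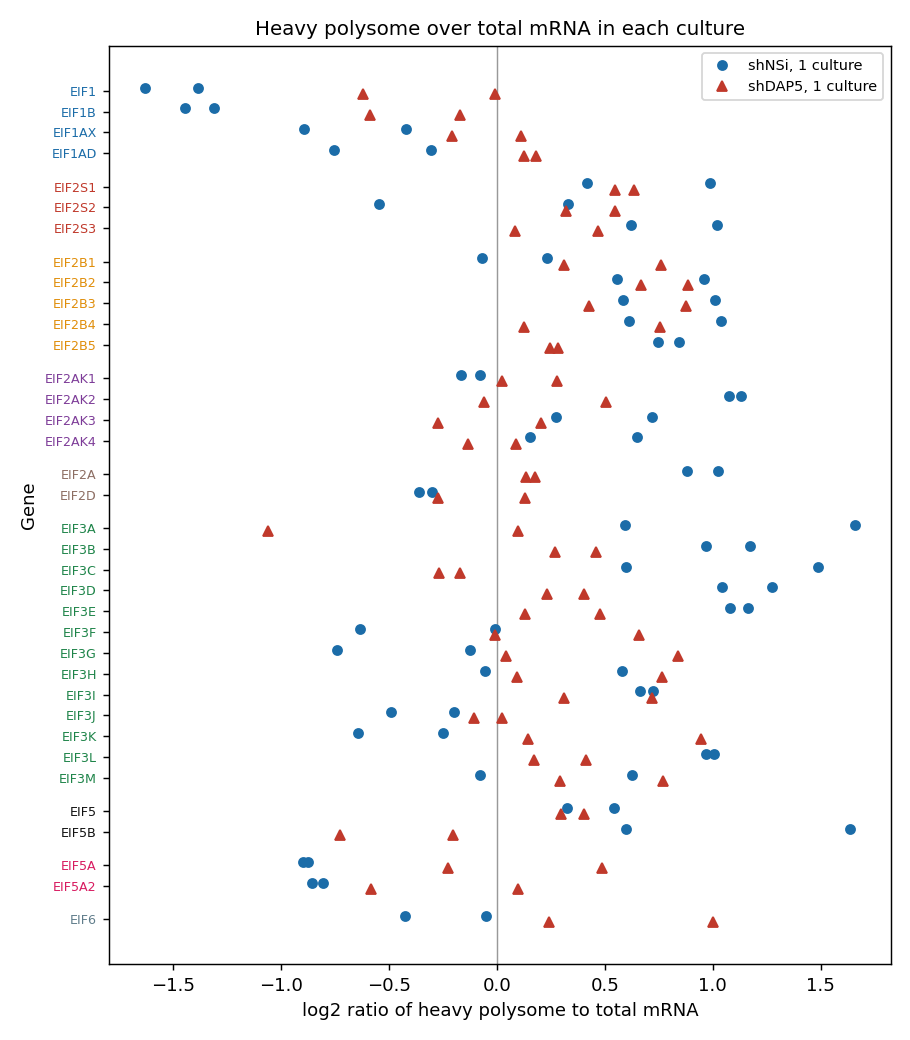
The x axis gives, for each culture, the log2 value of heavy polysome over total mRNA (blue circles shNSi, red triangles shDAP5, 2 each) and the rows the 36 genes by factor. EIF1 and EIF1B lie furthest left in shNSi, at -1.63 to -1.31, and 0 of 36 genes passed the test for a ratio other than 0 in shDAP5.

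Comparing the lines within heavy polysomes asked which initiation factor mRNAs were gained or lost there on DAP5 silencing. Of the 36 members, 6 fell, against 16.7% of 14270 genes, and 5 rose, against 14.2%. The median was 0.06, against 0.09 over all genes. DESeq2 called 15 members (28.3% of all genes) and limma 14 (27.4%). All 11 of these calls were lost when shDAP5 culture 2 was left out, where 0.0134% of all genes passed, while 6 members passed without shDAP5 culture 1 (19.9% of all genes) and 5 without shNSi culture 2 (14.1%). Without TMM 4 were lower and 7 higher (25.5% of all genes in either direction), and with the shNSi heavy and moderate pools summed 1 call remained, EIF5B (2.77%). The alternative tools leaned opposite ways. DESeq2 added EIF2A, EIF2B5, EIF2S3, EIF3B, EIF3E and EIF3L, all lower in shDAP5, and lost the rises of EIF3G and EIF3K. Limma added EIF2AK1, EIF2S2, EIF3F and EIF6, all higher in shDAP5, and lost the fall of EIF2AK3.

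EIF5B was at 210 and 493 CPM in the shNSi heavy pools and at 88.7 and 72.0 CPM in shDAP5. The lines did not overlap, although the shNSi cultures themselves were far apart, and the log2 change was -2.13 ± 0.37 (adjusted p = 2.24e-06). EIF5 was at 417 and 431 CPM in shNSi and at 410 and 462 CPM in shDAP5. These overlapped, and the change was 0.04 ± 0.36 (adjusted p = 0.944).

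Within eIF3, EIF3A, EIF3C and EIF3D fell and EIF3G and EIF3K rose, with 8 of 13 not passing. Of these, DESeq2 called EIF3B, EIF3E and EIF3L as lower, and limma called EIF3F as higher. EIF3A went from 506 and 824 CPM to 183 and 131 CPM, a change of -2.08 ± 0.38 (adjusted p = 5.92e-06). EIF3D, the cap-binding subunit, went from 721 and 897 CPM to 318 and 380 CPM, a change of -1.21 ± 0.37 (adjusted p = 0.00805). In both, every shNSi culture was above every shDAP5 culture. With the trend on coding length removed EIF3A had -1.23 (adjusted p = 0.0142), EIF3D -0.98 (adjusted p = 0.0373) and EIF5B -1.29 (adjusted p = 0.0193). With the shNSi heavy and moderate pools summed EIF3A had -1.20 (adjusted p = 0.0546), EIF3D had -0.59 (adjusted p = 0.604) and EIF5B had -1.25 (adjusted p = 0.0292). EIF3D also lost its call without any 1 of 3 cultures (shNSi 2, shDAP5 1 or shDAP5 2).

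EIF3C changed by -1.96 ± 0.39 (adjusted p = 3.12e-05), from 8.42 and 16.2 CPM to 3.13 and 3.18 CPM, with the uncertainty given above, and had -1.29 (adjusted p = 0.0316) with the trend on coding length removed. EIF3G, an RNA-binding subunit near the mRNA entry channel, went the other way, from 164 and 113 CPM to 204 and 311 CPM, a change of 0.90 ± 0.35 (adjusted p = 0.0398). EIF3K went from 185 and 161 CPM to 242 and 397 CPM, a change of 0.89 ± 0.36 (adjusted p = 0.0447). In both genes each shDAP5 culture was above each shNSi culture, but cultures of a line differed widely. Both calls were lost in DESeq2, without the filter on low counts and with a replicate block (0.89 and 0.85, adjusted p = 0.0757 and 0.099). EIF3K also lost its call when any 1 culture was left out, and EIF3G without shNSi culture 2 or either shDAP5 culture.

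EIF1 rose from 371 and 429 CPM to 834 and 1121 CPM, a change of 1.29 ± 0.38 (adjusted p = 0.00513). EIF1B, its close paralog, rose from 21.8 and 21.1 CPM to 39.8 and 40.0 CPM, a change of 0.89 ± 0.33 (adjusted p = 0.0289). EIF1B lost its call when any 1 culture was left out and without the filter on low counts, and EIF1 lost its call without shNSi culture 1. EIF5A rose from 570 and 625 CPM to 941 and 1577 CPM, a change of 1.08 ± 0.38 (adjusted p = 0.0215). This call was lost with a replicate block (1.03, adjusted p = 0.078) and without either shNSi culture, and the summed shNSi pools gave 0.22 (adjusted p = 0.92). The lines did not overlap in any of these genes. With the trend on coding length removed, none of the 5 rises passed. EIF1 then had 0.26 (adjusted p = 0.575), EIF5A 0.15 (adjusted p = 0.764), EIF1B -0.12, EIF3G 0.56 and EIF3K 0.20.

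No eIF2 or eIF2B subunit passed the edgeR test in heavy polysomes, while DESeq2 called EIF2S3 and EIF2B5 and limma called EIF2S2. EIF2S2 and EIF2S3 had the values furthest apart in eIF2, 0.73 ± 0.37 and -0.69 ± 0.33, and in eIF2B the values ran from -0.73 for EIF2B5, the catalytic ε subunit, to 0.35 for EIF2B1. Of the kinases, EIF2AK2 (PKR, activated by double-stranded RNA) fell from 127 and 114 CPM to 63.1 and 51.9 CPM, a change of -1.07 ± 0.33 (adjusted p = 0.00827). EIF2AK3 (PERK, the kinase of the endoplasmic reticulum) fell by 0.86 on the log2 scale (SE 0.35, adjusted p = 0.0491), a call that was lost with the trend on coding length removed (-0.09, adjusted p = 0.871), without TMM (-0.60, adjusted p = 0.197), in limma and without any 1 of 3 cultures (shNSi 2, shDAP5 1 or shDAP5 2). EIF2AK2 kept its call with the trend removed (-0.83, adjusted p = 0.0407) and lost it without TMM (-0.81, adjusted p = 0.0662). EIF2AK1 (HRI, the heme-regulated kinase) had 0.74 ± 0.35 and EIF2AK4 (GCN2, activated by uncharged tRNA) -0.54 ± 0.33, and neither passed. With the trend on coding length removed EIF2AK1 passed (1.09, adjusted p = 0.0175), as it did without TMM (0.98, adjusted p = 0.0356), and EIF2AK4 turned to 0.37 (adjusted p = 0.383).

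In the light polysomes 0 of 36 members changed, as did 0% of 15529 genes, with 1 member at an unadjusted p under 0.05 and 0 calls by DESeq2 or limma. Light translation efficiency, the change in the ratio of light polysome to total mRNA, also gave 0 members and 0% of 15967 genes, with 3 members at an unadjusted p under 0.05. Leaving out shNSi culture 1 gave 15 and 14 member calls in these comparisons, beside 28.9% and 12.3% of all genes. Taking the shNSi moderate pool as the control gave 14 in each, beside 25.5% and 27.5% of all genes. The result in light polysomes therefore depended on which shNSi pools were compared.

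**Figure D3:**
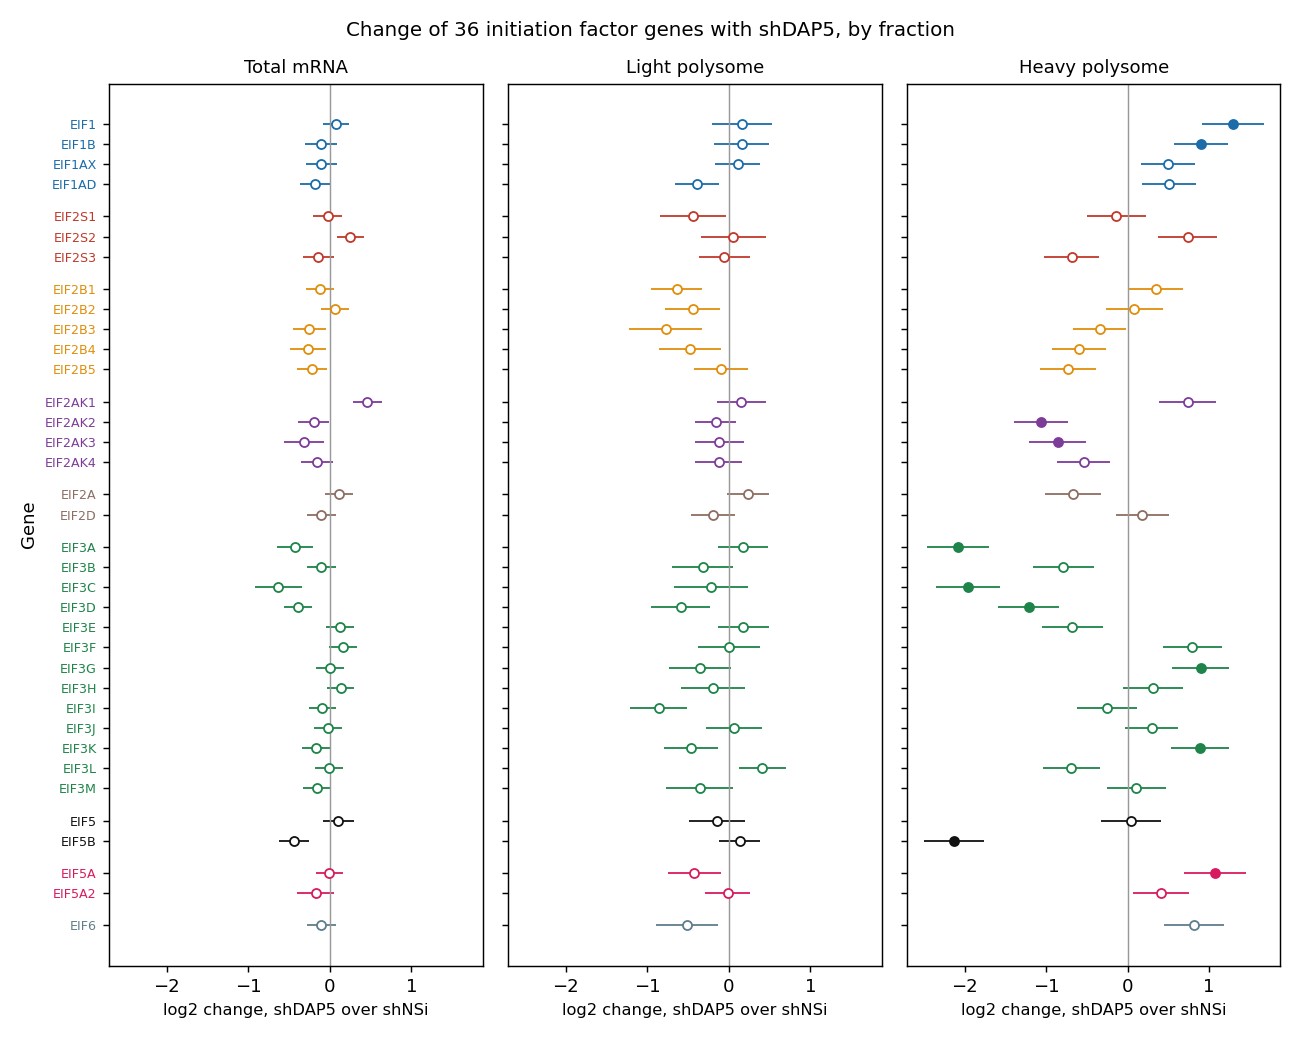
The x axes give the log2 change of shDAP5 over shNSi with its SE in total mRNA, light and heavy polysomes, and the rows the 36 genes, with filled points for adjusted p under 0.05. Filled points appear only in heavy polysomes, 6 to the left of 0 and 5 to the right.

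Heavy translation efficiency, the change in the ratio of heavy polysome to total mRNA, takes account of the level of each mRNA. Of 36 members 3 fell (8.23% of 15374 genes) and 2 rose (4.85%). EIF3A fell by 1.61 on the log2 scale (SE 0.41, adjusted p = 0.0131), EIF5B by 1.58 (SE 0.36, adjusted p = 0.00824) and EIF3C by 1.27 (SE 0.39, adjusted p = 0.0261). EIF1 rose by 1.19 ± 0.38 (adjusted p = 0.0325) and EIF1B by 1.00 ± 0.34 (adjusted p = 0.0425). With a replicate block EIF1, EIF1B and EIF3C kept values of 1.19, 1.00 and -1.27 but did not pass (adjusted p = 0.14, 0.119 and 0.0579). EIF3A and EIF5B still passed with it (adjusted p = 0.0326 and 0.0283). The median of the members was -0.03, against 0.09 over all genes.

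In this measure the subunits of eIF3 ran from -1.61 for EIF3A to 0.99 for EIF3K (adjusted p = 0.0522). Of the 13, 7 were below 0 and 6 above. EIF3D had -0.84 ± 0.36 (adjusted p = 0.104). The eIF2B subunits spanned 0.98 and those of eIF2 1.09, with none passing. No member passed without shDAP5 culture 2 or without shNSi culture 2, where 0.27% and 0.025% of all genes did. Without shNSi culture 1 there were 2 (3.59% of all genes) and without shDAP5 culture 1 there were 10 (28.5%). DESeq2 called 9 members and 13.8% of all genes, and without TMM 0 members and 0% of all genes passed. Limma called 5 members and 5.96% of all genes. It kept EIF1 and EIF5B, lost EIF1B, EIF3A and EIF3C, and added EIF3K, EIF5A and EIF6, which had values above 0.

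The change from shNSi to shDAP5 was then compared between heavy and light polysomes directly. It was lower in heavy for 3 of 36 members (5.21% of 15878 genes) and higher for 0 (1.54%). EIF3A differed by -2.36 ± 0.54 (adjusted p = 0.0204), EIF5B by -2.24 ± 0.47 (adjusted p = 0.0175) and EIF3C by -1.79 ± 0.48 (adjusted p = 0.0309). In light polysomes these genes had changes of 0.17, 0.13 and -0.22. All 3 calls were lost without shDAP5 culture 2, and with the trend on coding length removed.

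From high to low change in heavy translation efficiency, the members tended from short to long coding sequences, with lengths taken from GENCODE release 29. Across the 36 genes Spearman's rho between coding length and the log2 change was -0.83, across the 13 eIF3 subunits -0.88, and across 12477 genes with a length -0.71. Genes within one set of libraries are not independent, and the values are a description. EIF1 and EIF1B code in 339 nucleotides, EIF3K in 654, EIF5B in 3660 and EIF3A in 4146. Of the 18 members above the median length of 1207.5 nucleotides 16 had values below 0, and of the 18 others 2 did.

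In shNSi cells the heavy over total ratio of the members had a rho of 0.76 with coding length, and in shDAP5 cells -0.18. Members off this order included EIF2AK1 (1890 nucleotides, 0.28 ± 0.34) and EIF2D (1752 nucleotides, 0.26 ± 0.33) above it, and EIF3E (1335 nucleotides, -0.82 ± 0.36) below. With the trend on coding length removed, 0 members passed, as did 4.04% of 12477 genes. EIF5B then had -0.82 (adjusted p = 0.0577), EIF3E -0.79 (adjusted p = 0.0624), EIF3A -0.80 (adjusted p = 0.0702) and EIF1 0.31 (adjusted p = 0.526), and the highest value was 0.62 for EIF2AK1. The part of length in the differences between subunits was not tested beyond this.

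**Figure D4:**
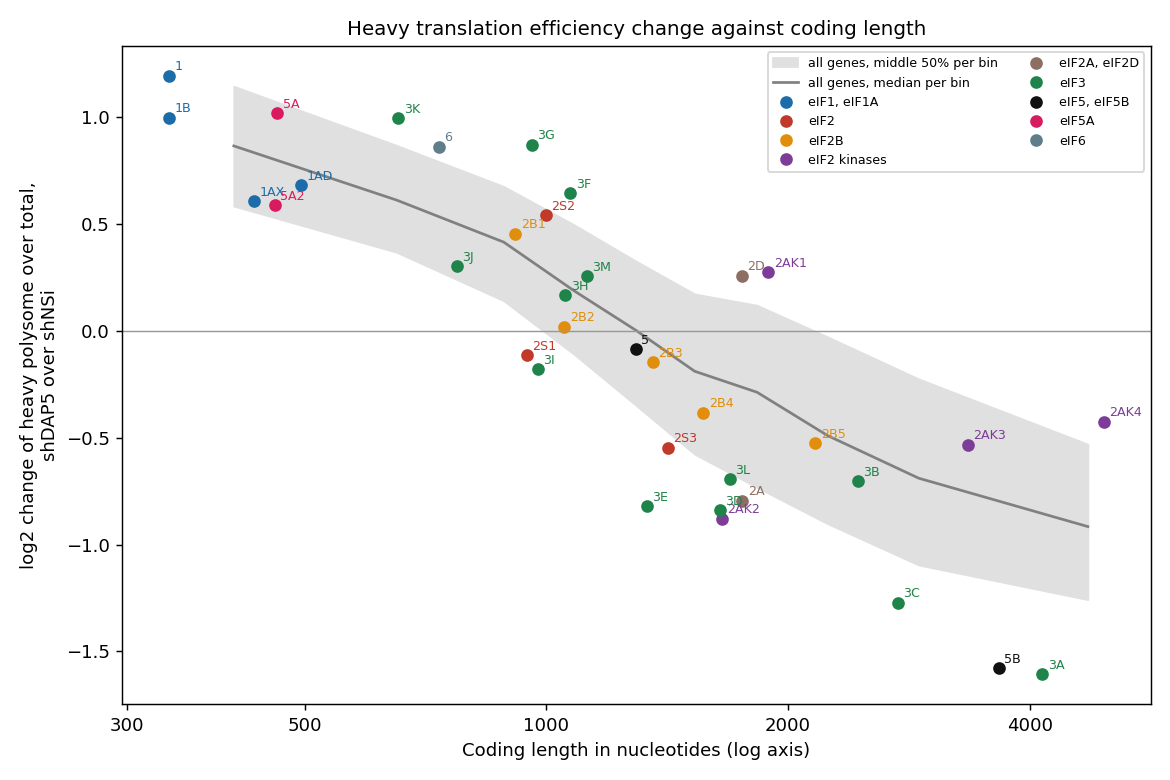
The x axis gives coding length in nucleotides on a log axis and the y axis the log2 change of heavy polysome over total mRNA, shDAP5 over shNSi, for the 36 genes (points, coloured by factor). The grey line and band are the median and middle 50% of all genes in 10 bins of length, with medians from 0.87 in the shortest bin to -0.92 in the longest, and 11 members lie below the band, EIF3A (-1.61) and EIF5B (-1.58) among them, 6 above it and 16 within it, while 3 have lengths beyond the bins.

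Several initiation factor mRNAs start with a run of pyrimidines at the cap, a feature that makes ribosomal protein mRNAs respond to mTOR. The annotated starts of RefSeq (GRCh38.p14) were searched for a C followed by C or T bases, at least 5 bases in all, on the transcribed strand at the start itself. Of 29 members with an entry 7 held the run, against 5.14% of 27305 genes. Windows cover 10 bases before and 15 from the start, with the run in capitals. The 7 members that carry it, 4 of them eIF3 subunits, are printed first, and 3 of the members without it, EIF1, EIF3B and EIF5B, follow.
EIF3D (chr22:36529152-36529176, minus strand): cgcatgtttcCTCTTTTCCTggttt
EIF3F (chr11:7987327-7987351, plus strand): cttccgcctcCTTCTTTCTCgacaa
EIF3K (chr19:38619178-38619202, plus strand): tttccaccacCTCTTCCTgttcccg
EIF3M (chr11:32583821-32583845, plus strand): gcccagttccCTTTTCCggtcggcg
EIF2A (chr3:150546777-150546801, plus strand): cgagcggtttCTCTTTCCgggacaa
EIF2D (chr1:206612451-206612475, minus strand): ccagccgggcCCTTTTCgcggccgg
EIF2S3 (chrX:24054946-24054970, plus strand): gatttccttcCTCTTTTggcaacat
EIF1 (chr17:41688875-41688899, plus strand): ccgcccctctgccccagtcactgag
EIF3B (chr7:2354817-2354841, plus strand): tcgcacgcacatggctgggctgtag
EIF5B (chr2:99337379-99337403, plus strand): ctgagaactcacaccatatgtgtcc

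In heavy translation efficiency the 7 genes with the run had values from -0.84 for EIF3D to 0.99 for EIF3K, with a median of 0.26, and 0 passed. The 22 without it ran from -1.58 to 1.19 with a median of -0.10. Over all genes the medians were 0.14 for 749 genes with the run and 0.02 for 9635 without. EIF2AK1, EIF2S2, EIF3A, EIF3E, EIF3G, EIF3H and EIF3L had no entry. A match describes the letters at an annotated start and not the start used in these cells.

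Other parts of the translation apparatus gave the frame for these values in heavy translation efficiency, where 4.85% of all genes rose and 8.23% fell. Of 12 genes of the eIF4 group 1 rose and 2 fell (median 0.00), from -1.27 for EIF4G1, the main cap complex scaffold, to 1.07 for EIF4EBP1, an eIF4E inhibitor. Of 9 elongation and termination genes tested 0 rose and 2 fell (median -0.03), from -1.33 for EEF2, the translocation factor, to 0.90 for EEF1B2. Of 9 genes of scanning, reinitiation and eIF2α dephosphorylation 0 rose and 2 fell (median 0.52), from -1.59 for DHX29, a scanning helicase, to 0.79 for MCTS1. Of 77 ribosomal protein genes 45 rose and 0 fell (median 1.13). Their count of rises was 48 in DESeq2, 56 in limma and 40 without the filter on low counts. It was 0 without TMM (median 1.35), with the trend on coding length removed (median 0.36) and with the shNSi heavy and moderate pools summed (median 0.29). A replicate block left 3 (median 1.13). The median was 1.14, 1.06, 0.69 and 1.58 without shNSi 1, shNSi 2, shDAP5 2 and shDAP5 1, and the calls were lost in the first 3 of these.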

How the data were processed

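Raw counts per gene symbol were deposited by the authors for all 14 libraries. The submitters' processing notes name STAR 2.6.0a, limma and build hg19. The counting settings are not given in the sources used here, and positions and lengths come from GRCh38 annotation. Libraries were grouped by their labels. The study describes 2 sets of experiments performed independently, here 2 cultures per line. P-values and SE rest on the spread between cultures, with each gene's variance drawn toward a trend over all genes. They therefore do not measure a gene's own spread alone. Counts were filtered with filterByExpr, scaled by TMM and tested with edgeR 4.0.16 (R 4.3.3), in 4 libraries for a fraction and in 8, with a term for each culture, for ratios. CPM values use the TMM factors of the 4 libraries of a fraction, those of the line markers the library size alone, and gradient ratios those of the 8 shNSi libraries. DESeq2 1.42.0 and limma 3.58.1 on log2(CPM + 1) served as alternatives. No column was left out. Genes named were all members, EIF4G2, the line markers, the extremes of the other lists and, outside that rule, close copies of members. Members and lists were chosen with earlier results of these data known, and the search for the pyrimidine run was added after values had been seen. SE is the log2 change over the root of its F statistic.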

Additional observations from a re-analysis of the deposited data

Results flagged for a closer look

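The change from shNSi to shDAP5 differed between the heavy and the light polysomes for 3 members by the interaction test of edgeR. EIF5B had a log2 difference of -2.24 (SE 0.47, adjusted p = 0.0175), EIF3A of -2.36 (SE 0.54, adjusted p = 0.0204) and EIF3C of -1.79 (SE 0.48, adjusted p = 0.0309). In each the fall lay in the heavy pool, at -2.13, -2.08 and -1.96, while the light pool had 0.13, 0.17 and -0.22. They are long among the members, with coding sequences of 3660, 4146 and 2739 nucleotides, and 0 of the 3 passed with the trend on coding length removed. The EIF3C row held few counts beside its copy EIF3CL.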

How the results depend on the processing

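The numbers of members called in total mRNA and between heavy and light polysomes of shNSi cells stayed within 1.5 times their values under every alternative run, but the genes behind the latter number changed. With coding length offsets 16 of its 24 calls were kept and all 6 lower ones were lost. EIF2AK1 and EIF2D were then added as lower and EIF2B1 and EIF3H as higher. Without TMM 11 members were lower. Elsewhere the choice of shNSi pools, the length trend and single cultures decided many calls. With shNSi heavy and moderate counts summed, calls went from 11 to 1 in heavy polysome mRNA, from 5 to 0 in heavy translation efficiency, from 21 to 2 for shNSi heavy over total and from 3 to 0 for the difference between heavy and light. Coding length offsets gave 6, 0, 16 and 0 calls in these, of which 5 of the 6 and 14 of the 16 were called before, turned EIF1B in heavy polysome mRNA to -0.12, and changed the sign of 3, 6 and 1 called members in shNSi heavy over total, shNSi heavy over light and shDAP5 heavy over light. EIF2AK4 in shNSi heavy over light went from 0.71 to -0.65 and passed in both. All 36 members had a coding length. Over all genes 79.3% in the heavy and light fit, 79% in light translation efficiency and 12419 of 15529 in light polysome mRNA had one, under the minimum of 80% set for reading that check over all genes, so for these it is given for the members alone. DESeq2 gave 9 and 5 calls in heavy translation efficiency and in the heavy and light difference, and library size without TMM 0 and 5. Without TMM the median of all genes in heavy polysome mRNA moved from 0.09 to 0.34. In light polysome mRNA and light translation efficiency the moderate pool as control gave 14 and 14 calls, and summing it with the light pool gave 3 in the latter. The cause of these changes was not tested beyond the settings themselves.

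Leaving out 1 culture at a time gave 0 to 11 calls in heavy polysome mRNA, 0 to 10 in heavy translation efficiency, 0 to 15 in light polysome mRNA, 0 to 14 in light translation efficiency, 1 to 23 for shNSi heavy over total, 0 to 2 for shDAP5 heavy over total, 7 to 25 for shDAP5 heavy over light and 0 to 9 for the difference between heavy and light. The lowest values came without shDAP5 culture 2 in heavy polysome mRNA, heavy translation efficiency and the heavy and light difference. They came without shNSi culture 2 in heavy translation efficiency too and in shNSi heavy over total, and without shDAP5 culture 1 in shDAP5 heavy over light. The highest in the light results came without shNSi culture 1.

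Cultures of the same number did not deviate together (r = -0.18 for heavy over total, 0.05 in heavy polysomes), so they share only a number. A replicate block left 2 members called in heavy translation efficiency and 8 in heavy polysome mRNA, and the block with coding length offsets 0. The crossed pairing, added after the data were seen, gave 15 in heavy translation efficiency and 3 for the heavy and light difference.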
